A study of Homo sapiens with 4 samples.

Results

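The repressors and guardians of epithelial identity were read in MDA-MB-231, an established human triple-negative breast cancer cell line of mesenchymal type. Libraries came from control cells or from cells with an siRNA against hTrmt13, a tRNA methyltransferase encoded by TRMT13. The 10 genes were chosen by symbol: SNAI1, SNAI2, ZEB1, ZEB2, TWIST1 and TWIST2 as transcription factors that drive the epithelial-mesenchymal transition (EMT), and ESRP1, ESRP2, GRHL2 and OVOL1 as regulators that maintain the epithelial state. All 10 were among the 28930 gene symbols of the count table, 7 had at least 1 count and 5 passed the filter on low counts. Each group held 2 libraries of total RNA. The study set knockdown against control to look for genes that depend on hTrmt13. Sequence, dose and time of the siRNA are not given in the labels. The sample descriptions name the other group only as control. The labels also do not name separate cultures, so every p-value here reflects only library-to-library spread, which may be technical.

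In EMT, cells loosen cell-cell junctions and gain mesenchymal traits. SNAIL (SNAI1, SNAI2) and ZEB (ZEB1, ZEB2) zinc finger proteins bind E-box sequences in the promoters of epithelial genes, E-cadherin (CDH1) among them, and recruit corepressors, while TWIST proteins are basic helix-loop-helix factors that bind E-boxes as dimers. On the epithelial side, GRHL2 and OVOL1 are transcription factors that sustain junction genes and oppose ZEB1, and ESRP1 and ESRP2 are RNA-binding proteins that direct epithelial splicing of transcripts such as those of CD44 and FGFR2.

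The E-box that SNAIL and ZEB proteins favour is CACCTG, or CAGGTG on the other strand, a subset of the general E-box CANNTG. RefSeq promoter windows (GRCh38.p14) were available for 3 of the 10 genes, with 7 windows for ZEB1 and 1 each for ZEB2 and TWIST2. In the 250 bases before the start, searched on both strands, 2 of these 9 windows held CACCTG or CAGGTG, both of ZEB1, against 17.5% of all 35116 windows, and 5 held any CANNTG, against 61.8% of all. The most upstream ZEB1 window is shown because ZEB1 had the highest level among the 10 genes. It lies at chr10:31318167-31318416 on the plus strand, outside the exons of ZEB1 and within an exon of the antisense gene ZEB1-AS1 in GENCODE 29, with the E-box in capitals.
ZEB1 window 1: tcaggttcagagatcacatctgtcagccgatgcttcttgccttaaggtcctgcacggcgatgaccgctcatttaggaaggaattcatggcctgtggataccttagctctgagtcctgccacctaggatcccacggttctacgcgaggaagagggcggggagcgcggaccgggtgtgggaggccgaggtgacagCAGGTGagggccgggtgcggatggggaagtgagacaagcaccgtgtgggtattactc

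Among 44 epithelial genes that are repressed in EMT, 23 had promoter windows, and 16 of their 33 windows (48.5%) held CACCTG or CAGGTG. The window of CRB3, a Crumbs polarity protein gene known as a ZEB1 target, held 5 of them, a number reached in 26 of all 35116 windows (0.074%). CRB3 was picked for display after these windows were searched. Each site is given with 12 bases on either side, on the plus strand of chromosome 19, with the E-box in capitals. The matches are letters in a reference sequence, and no binding was measured here.
CRB3 site 228 bases before the start, chr19:6464031-6464060: atgctcgcaatgCAGGTGtaaggtccccct
CRB3 site 208 bases before the start, chr19:6464051-6464080: aggtccccctcaCACCTGcgcgcttccgcg
CRB3 site 147 bases before the start, chr19:6464112-6464141: ggggtcccgttaCAGGTGcgcccacagcgc
CRB3 site 89 bases before the start, chr19:6464170-6464199: ctcagcgaggctCAGGTGcacaagccggaa
CRB3 site 60 bases before the start, chr19:6464199-6464228: agtgcgctctccCAGGTGagtgactaaact

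Depth and labels were checked first. The libraries held 9777267 to 13098985 counts, so a level of 1 CPM (counts scaled to library size with TMM factors) rests on 9.59 to 13.4 counts. TRMT13 itself fell 4.05-fold, with 14.9 and 18.9 CPM in control and 3.52 and 4.79 CPM under the knockdown (adjusted p = 0.0399 in edgeR's quasi-likelihood test). Over all 13022 genes tested, 2.99% were called at an adjusted p under 0.05, 1.03% higher and 1.96% lower in the knockdown, and in 54.3% the libraries of one group all lay on one side of the other group's. The features expected of a basal B breast line were present, with VIM (vimentin) at 1793 ± 37.3 CPM (SD, n = 2) in control and CAV1, MSN and AXL between 414.4 and 997.1 CPM, while CDH1 had 1 count in each group. Of 9 such features 3 were called, all lower in the knockdown: EGFR, the epidermal growth factor receptor, from 1063 and 1360 CPM to 303.0 and 403.9 CPM (edgeR adjusted p = 0.0303), and S100A4 and SPARC, which are described with the mesenchymal genes. Luminal keratin genes were also measured at high levels, KRT8 at 661.2 CPM and KRT18 at 454.6 and 407.5 CPM in the control libraries.

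Of the 10 genes, 5 were tested. Of these 5, 0 were called in the edgeR test against 2.99% of all genes tested. In DESeq2 0 were called, where 1130 of the 18632 genes with any count were. At an unadjusted p under 0.05 in edgeR there were 2 of the 5, SNAI1 and ZEB2, where 24% of all genes tested met that mark. These 2 genes lay in opposite directions, SNAI1 lower and ZEB2 higher in both knockdown libraries. The libraries of the groups also did not overlap for ZEB1, and they overlapped for SNAI2 and ESRP2. Groups were thus apart in 3 of the 5 tested, where they were apart in 54.3% of all genes tested. TWIST1, TWIST2, ESRP1, GRHL2 and OVOL1 were at or next to 0 counts in every library.

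**Figure D1:**
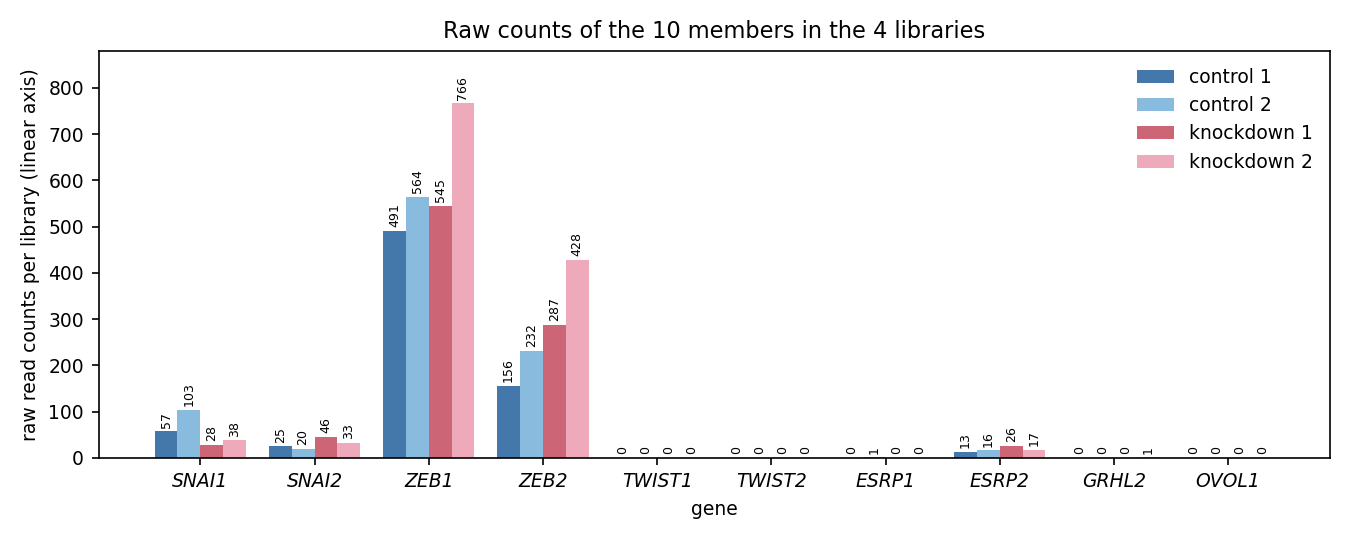
Raw read counts (linear vertical axis) of the 10 genes, with 1 bar for each of the 4 libraries and the count written above it. ZEB1 holds 491 to 766 counts and ZEB2 156 to 428, SNAI1, SNAI2 and ESRP2 hold 13 to 103, and the other 5 genes hold 0 or 1.

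SNAI1 encodes SNAIL, the founding zinc finger repressor of CDH1. In control, replicates 1 and 2 held 57 and 103 counts, and under the knockdown they held 28 and 38. These scale to 5.94, 7.96, 2.66 and 2.84 CPM. Both knockdown libraries thus lay under both control libraries, a separation that 54.3% of all genes tested showed in either direction. The knockdown libraries lay closer to each other than the controls did. The group means were 6.95 ± 1.43 and 2.75 ± 0.13 CPM (SD, n = 2), a 2.52-fold lower level (log2 fold change −1.34, SE 0.36, 95% interval −2.20 to −0.48). The adjusted p of 0.0925 in edgeR missed the threshold, and DESeq2 gave 0.113. With no filter on low counts the edgeR adjusted p was 0.0213, so this call depends on the filter. It also depends on whether replicate number enters the edgeR model, as given in the last section. The pooled counts of 160 and 66 differ 2.57-fold after scaling, with an exact binomial 95% interval of 1.92 to 3.48 that covers counting error only. SNAI1P1, a processed pseudogene of SNAI1 in GENCODE 29, could share reads with it.

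SNAI2 encodes SLUG, the close relative of SNAIL. Its counts were 25 and 20 in control and 46 and 33 in knockdown, or 2.61 and 1.55 CPM against 4.37 and 2.47 CPM. Knockdown replicate 2 lay inside the control range, so the groups overlapped. Its log2 fold change stood at 0.72 (SE 0.49, 95% interval −0.43 to 1.88, edgeR adjusted p = 0.411). It ran from 0.27 without knockdown replicate 1 to 1.13 without control replicate 1.

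Within a library, the balance between both SNAIL genes can be read without any scaling between libraries. SNAI2 made up 30.5% of the counts of SNAI1 and SNAI2 in control replicate 1 (95% exact binomial interval 20.8 to 41.6%) and 16.3% in control replicate 2 (10.2 to 24.0%). In the knockdown it made up 62.2% in replicate 1 (50.1 to 73.2%) and 46.5% in replicate 2 (34.5 to 58.7%). Shares of raw counts do not rank these genes, whose longest transcripts have 2828 (SNAI2) and 1686 bases (SNAI1). Per kilobase of these transcripts, knockdown replicate 1 held 1.55 CPM of SNAI2 and 1.58 CPM of SNAI1. Both knockdown shares lay above both control shares, although the intervals of control replicate 1 and knockdown replicate 2 overlapped. An exact permutation test of 2 libraries against 2 cannot go under a two-sided p of 0.333, so these shares are given as a description.

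ZEB1 encodes a large zinc finger repressor with homeodomain-like sequence that silences CDH1 and polarity genes. Its 491 and 564 counts in control and 545 and 766 in knockdown scale to 51.2, 43.6, 51.8 and 57.3 CPM. The groups were separated only by the narrow step between control replicate 1 and knockdown replicate 1. Their means were 47.4 ± 5.39 and 54.5 ± 3.92 CPM (SD, n = 2), at a log2 fold change of 0.20 with an SE of 0.23 (edgeR adjusted p = 0.639). The 95% interval of −0.35 to 0.76 spans changes in both directions.

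ZEB2, the second ZEB factor, had 156 and 232 counts in control and 287 and 428 in knockdown. These scale to 16.3 and 17.9 CPM against 27.3 and 32.0 CPM, with a gap between the groups. The means were 17.1 ± 1.17 and 29.6 ± 3.37 CPM (SD, n = 2), a 1.73-fold higher level (log2 fold change 0.79, SE 0.25, 95% interval 0.19 to 1.40). The adjusted p was 0.128 in edgeR and 0.156 in DESeq2, so the difference did not pass either test. Neither test used replicate number, and the edgeR call changed when it was added, as given in the last section. Pooled counts of 388 and 715 gave a scaled ratio of 1.74 (95% exact binomial interval 1.53 to 1.97, counting error only). In GENCODE 29, 1299 exon bases of ZEB2 overlap the antisense gene ZEB2-AS1 and 366 of ZEB1 overlap ZEB1-AS1, and without a stated strand setting reads of these partners cannot be told apart. A pseudogene copy, ZEB2P1, could also share reads with ZEB2.

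The balance of the ZEB genes within each library was read in the same way. ZEB2 made up 24.1% (95% exact binomial interval 20.9 to 27.6%) and 29.1% (26.0 to 32.4%) of the counts of ZEB1 and ZEB2 in the control libraries. It made up 34.5% (31.3 to 37.8%) and 35.8% (33.1 to 38.6%) in the knockdown libraries. Both knockdown shares were above both control shares, although the intervals of control replicate 2 and knockdown replicate 1 overlapped.

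**Figure D2:**
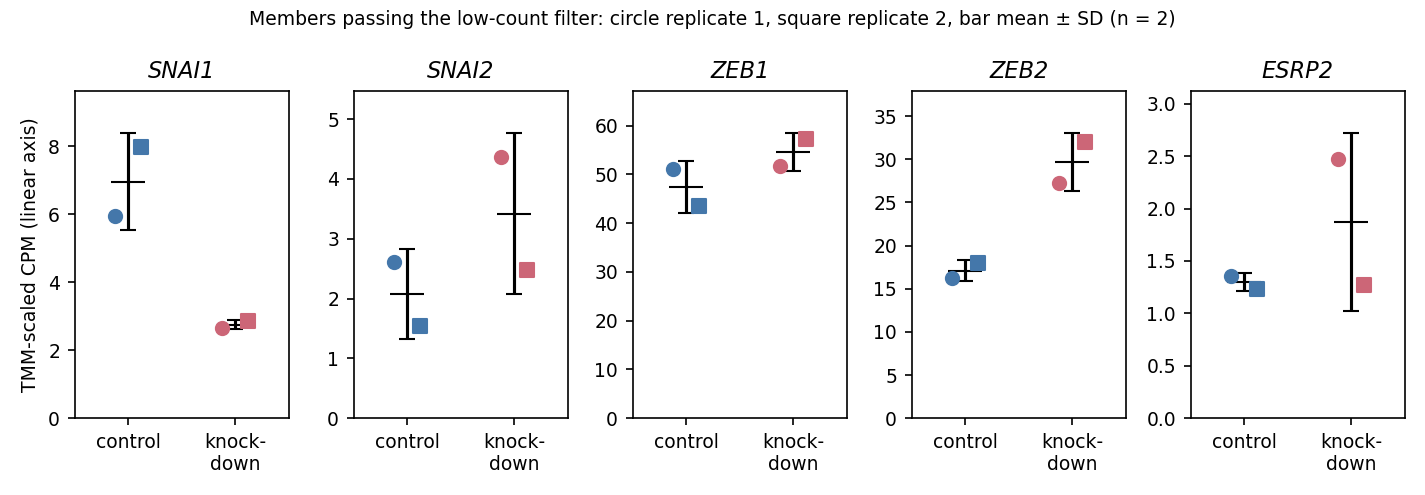
TMM-scaled CPM (linear axes starting at 0, with a separate scale per gene) of the 5 genes that passed the low-count filter, with circles for replicate 1, squares for replicate 2 and bars for mean ± SD (n = 2). SNAI1 sits lower in the knockdown (2.66 and 2.84 against 5.94 and 7.96 CPM), ZEB2 higher (27.3 and 32.0 against 16.3 and 17.9 CPM), and the groups of SNAI2 and ESRP2 overlap.

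**Figure D3:**
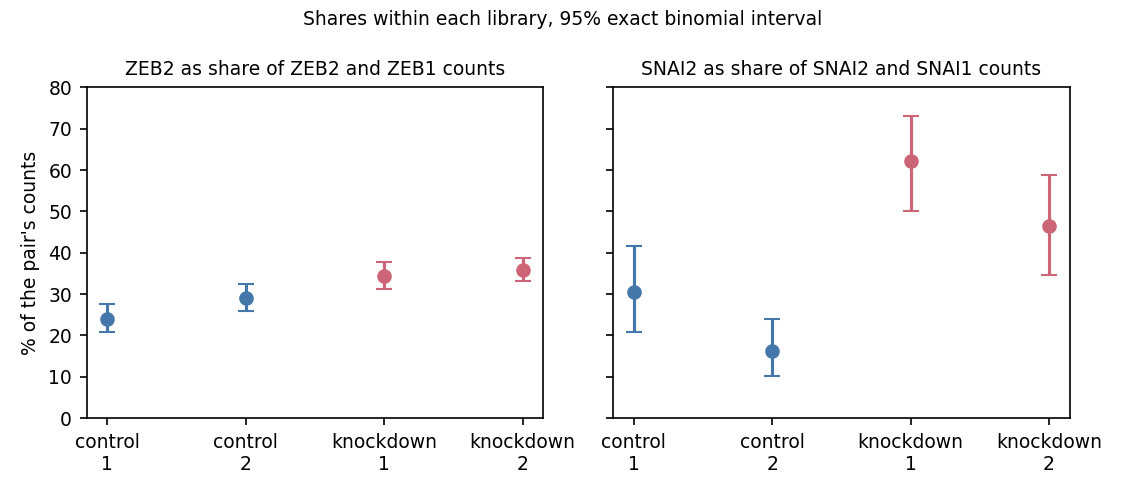
Share (%) of ZEB2 in the counts of ZEB2 and ZEB1, left, and of SNAI2 in the counts of SNAI2 and SNAI1, right, for each library, with 95% exact binomial intervals as bars (counting error only). Both knockdown libraries lie above both control libraries in each panel, at 34.5 and 35.8% for ZEB2 and at 62.2 and 46.5% for SNAI2. Shares are of raw counts, not scaled to transcript length.

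TWIST1 and TWIST2, the helix-loop-helix drivers of EMT, had 0 counts in all 4 libraries. A count of 0 allows up to 3 counts, which is 0.133 CPM over the control libraries together and 0.126 CPM over the knockdown libraries, again for counting error only. A difference under that level was not detectable at this depth. The EMT factors with reads among the 6 were therefore the SNAIL and ZEB genes.

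On the epithelial side, OVOL1 had 0 counts in every library. ESRP1 had 1 count, in control replicate 2, and GRHL2 had 1 count, in knockdown replicate 2. With so few counts the knockdown-to-control ratio has a 95% counting interval from 0 to 36.8 for ESRP1 and from 0.0242 upward for GRHL2. Neither direction can be read from a single count.

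ESRP2 was the only one of the 4 epithelial regulators to pass the filter. Its counts were 13 and 16 in control and 26 and 17 in knockdown, or 1.36, 1.24, 2.47 and 1.27 CPM. Only knockdown replicate 1 stood apart, and the log2 fold change of 0.51 (SE 0.51, 95% interval −0.69 to 1.72, edgeR adjusted p = 0.581) was −0.016 without that library. In GENCODE 29, 149 exon bases of ESRP2 overlap NFATC3 on the opposite strand, so part of these low counts may not be its own.

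Levels of different genes were ranked only per kilobase, over the longest GENCODE 29 transcript of each gene. The within-library shares above were of raw counts and were not scaled to length. In control the order was ZEB1 at 7.56 ± 0.86, SNAI1 at 4.12 ± 0.85, ZEB2 at 1.78 ± 0.12, SNAI2 at 0.73 ± 0.27 and ESRP2 at 0.34 ± 0.02 CPM per kilobase (SD, n = 2), and neighbours in this order did not overlap on this length. In the knockdown it was ZEB1 at 8.70 ± 0.63, ZEB2 at 3.09 ± 0.35, SNAI1 at 1.63 ± 0.08, SNAI2 at 1.21 ± 0.48 and ESRP2 at 0.49 ± 0.22 CPM per kilobase. SNAI1 and SNAI2 there differed by less than the SD of SNAI2. ZEB2 and SNAI1 exchanged places between the groups on this scale. Over the union of all annotated exons, which is 25058 bases for ZEB2 against 9583 in its longest transcript, ZEB2 stayed under SNAI1 in the knockdown, at 1.18 and 1.63 CPM per kilobase, so that exchange depends on the length used. Over that union the control values of ZEB2, 0.65 and 0.72 CPM per kilobase, also lay inside those of SNAI2, 0.77 and 0.46.

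Other EMT-linked transcription factors were read from a list of 21, of which 16 were tested. Like the lists below, it was chosen with earlier results of these data known, so its counts are a description. In this list 3 fell and 0 rose, where 2.99% of all genes tested were called. The median log2 fold change was −0.43, against 0.0053 over all genes tested. HMGA2 is an architectural chromatin protein that takes part in EMT. It had 289.4 and 219.3 CPM in control and 47.4 and 63.6 CPM under the knockdown, 4.58-fold lower (edgeR adjusted p = 0.027). The 2 other called genes were ID3, 5.37-fold lower, and ID2, 4.20-fold lower, inhibitors that hold helix-loop-helix factors away from DNA. The 5 listed genes that were not tested, named here after their values were seen, were SNAI3 with 19 and 8 counts per group, PRRX1 with 25 and 6, FOXC2 with 0 and 2, and GSC and TBXT (T in the table) with 0.

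Of 18 other epithelial transcription factors, 10 were tested (median log2 fold change −0.76). Of these 2 fell and 0 rose, where 2.99% of all genes tested were called. SPDEF is an ETS factor of luminal and secretory epithelium. It had 62.9 and 31.0 CPM in control and 8.55 and 5.84 CPM under the knockdown, 6.53-fold lower (edgeR adjusted p = 0.0357). ELF3, another epithelial ETS factor, was at 8.55 and 3.17 CPM against 0.28 and 0.52 CPM (edgeR adjusted p = 0.0435). OVOL2, the relative of OVOL1, had 0 counts in all 4 libraries.

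SNAIL and ZEB proteins act through corepressors, and all 27 listed ones were tested (median log2 fold change −0.28). Of these 2 fell and 0 rose, where 2.99% of all genes tested were called. That split was 3 lower and 2 higher in DESeq2 and 3 lower and 3 higher with no filter on low counts. Of the 18632 genes with any count, DESeq2 called 1130 and edgeR with no filter 1949. RCOR1, the CoREST scaffold that joins the demethylase KDM1A to SNAIL, fell 4.19-fold, from 92.9 and 108.7 CPM to 18.2 and 29.8 CPM (edgeR adjusted p = 0.0325). WTIP, a LIM protein of the AJUBA family, can bind SNAIL proteins. It had 13.8 and 12.8 CPM in control and 0.86 and 1.05 CPM under the knockdown. Its relatives AJUBA and LIMD1 lay the other way and were not called. AJUBA had 214.2 and 199.2 CPM in control and 383.2 and 316.1 CPM under the knockdown. LIMD1 had 232.1 and 197.4 CPM against 454.7 and 356.6 CPM. CTBP1, a C-terminal binding protein recruited by ZEB factors, had overlapping groups at 81.3 ± 1.84 and 87.8 ± 23.9 CPM (SD, n = 2, log2 fold change 0.11, edgeR adjusted p = 0.832). CTBP2, also listed and not called, had 70.4 and 68.7 CPM in control and 33.9 and 36.7 CPM under the knockdown (log2 fold change −0.98).

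Among genes for the turnover and modification of SNAIL and TWIST proteins, 26 of 28 were tested (median log2 fold change 0.062). In edgeR 0 were called, against 2.99% of all genes tested. In DESeq2 0 were called, where 1130 of the 18632 genes with any count were. At an unadjusted p under 0.05 in edgeR there were 3, where 24% of all genes tested met that mark. The smallest p belonged to GSK3B, the kinase that marks SNAIL for degradation. GSK3B had 49.3 and 63.1 CPM in control and 93.4 and 112.2 CPM under the knockdown (log2 fold change 0.87, SE 0.24, edgeR adjusted p = 0.0971). It passed with no filter (0.025 in edgeR) and without knockdown replicate 1 (0.0335). CSNK1E, a casein kinase, followed at 157.9 ± 22.9 and 253.5 ± 60.6 CPM (SD, n = 2; edgeR adjusted p = 0.168). Protein levels were not measured.

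Epithelial genes repressed in EMT form the target side of this circuit. Of 44 listed, 37 were tested, with a median log2 fold change of −0.43. In edgeR 4 fell and 0 rose, where 2.99% of all genes tested were called. The split became 9 lower and 3 higher in DESeq2 and 11 and 4 with no filter. Those settings called 1130 and 1949 of the 18632 genes with any count. PARD6B is a polarity protein of the apical PAR complex. It had 27.3 and 40.3 CPM in control and 4.56 and 8.31 CPM under the knockdown, 5.22-fold lower (edgeR adjusted p = 0.039). DSC2 and DSP, a desmosomal cadherin and the plaque protein desmoplakin, fell 2.97-fold and 2.42-fold, and the protease gene PRSS8 went from 65 counts to 2. The DSC2 call ended without control replicate 2 (edgeR adjusted p = 0.0543) or knockdown replicate 2 (0.0608), that of DSP without control replicate 1 (0.06) or with scaling to library size alone (0.0502), and that of PRSS8 without knockdown replicate 2 (0.0507).

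CDH1, EPCAM and CRB3, which were not called, were at low levels. CDH1 had 1 count in control replicate 2 and 1 in knockdown replicate 1, so a difference was not detectable. EPCAM, an epithelial adhesion protein, was at 3.55 and 6.34 CPM in control and 2.18 and 2.84 CPM under the knockdown (log2 fold change −0.98, SE 0.44, edgeR adjusted p = 0.232). CRB3, whose E-boxes are shown above, had 9 and 6 counts in control and 13 and 17 in knockdown (log2 fold change 0.87, SE 0.56, edgeR adjusted p = 0.387).

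Mesenchymal genes that rise in EMT changed in both directions. Of 41 listed, 31 were tested, with a median log2 fold change of −0.28. In edgeR 2 rose and 4 fell, where 2.99% of all genes tested were called. That balance turned to 4 higher and 2 lower without control replicate 1, and likewise without knockdown replicate 2. COL5A2, a fibrillar collagen chain, rose from 8 counts in control to 94 in knockdown (edgeR adjusted p = 0.0357), and TNC (tenascin C) rose 4.98-fold. FSTL1, a secreted glycoprotein, fell from 129.4 and 136.7 CPM to 25.2 and 34.0 CPM, 4.49-fold (edgeR adjusted p = 0.0264), and ITGB3, an integrin subunit, fell 12.4-fold. The other 2 were SPARC and S100A4, 2.30-fold and 3.01-fold lower, whose calls both ended without control replicate 1 (edgeR adjusted p = 0.0832 and 0.0749) or knockdown replicate 2 (0.0705 and 0.0635), and for SPARC also without control replicate 2 (0.0621). With a mean of at least 5 CPM both calls also ended (0.0518 and 0.0538 in edgeR), and with library size alone that of SPARC did (0.0514). FN1, which encodes fibronectin, stood at 391.3 and 284.2 CPM in control and 947.4 and 582.5 CPM under the knockdown (log2 fold change 1.18, edgeR adjusted p = 0.0811). FN1 was called in DESeq2 (adjusted p = 0.00881), and in edgeR with no filter (0.000104), without control replicate 1 (0.00267) and without knockdown replicate 2 (0.0251). VIM had a log2 fold change of 0.02 (SE 0.19) and CDH2, which encodes N-cadherin, held 19 and 16 counts per group.

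**Figure D4:**
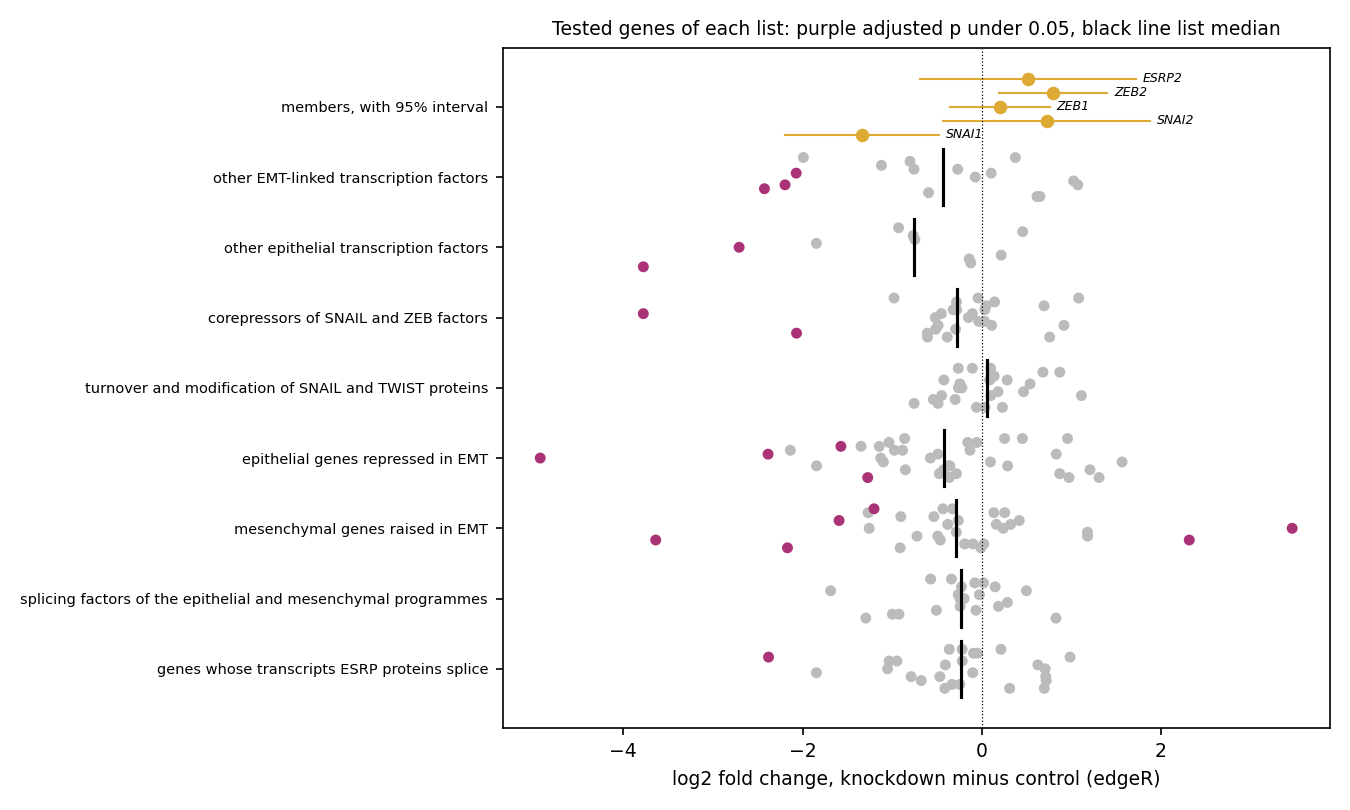
edgeR log2 fold changes (horizontal axis, knockdown minus control) of the 5 tested genes with their 95% intervals, top, and of every tested gene in the 8 related lists, with called genes in purple and the list median as a black line. SNAI1 lies to the left at −1.34, ZEB2 to the right at 0.79, and called genes lie to the left except COL5A2 and TNC.

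The splicing side was read through 2 further lists. Of 23 splicing factors, 21 were tested (median log2 fold change −0.23). In edgeR 0 were called, against 2.99% of all genes tested. In DESeq2 4 were called, where 1130 of the 18632 genes with any count were. At an unadjusted p under 0.05 in edgeR there were 6, where 24% of all genes tested met that mark. The smallest p-values were those of SRSF6, at 294.7 ± 37.4 and 147.6 ± 7.86 CPM (SD, n = 2; edgeR adjusted p = 0.0594), and PTBP3, at 103.4 ± 32.4 and 32.1 ± 13.6 CPM (edgeR adjusted p = 0.0622). DESeq2 called both, at adjusted p of 0.00951 for SRSF6 and 0.00045 for PTBP3. In edgeR both were called with no filter (0.00349 and 1.49e-06), PTBP3 also with any 1 library left out (0.000336 to 0.0343) and SRSF6 without control replicate 2 (0.0399) or knockdown replicate 1 (0.0414). RBFOX2 and QKI, factors of the mesenchymal splicing programme, had log2 fold changes of −0.57 (edgeR adjusted p = 0.181) and 0.19 (0.679).

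Of 28 genes whose transcripts ESRP proteins splice, 26 were tested and 1 fell, where 2.99% of all genes tested were called. It was GOLIM4, a Golgi membrane protein, from 116.1 and 105.4 CPM to 20.6 and 21.9 CPM (5.20-fold, edgeR adjusted p = 0.023). CD44 is the hyaluronan receptor and best-known ESRP target. It was at 272.4 and 272.7 CPM in control and 155.5 and 160.1 CPM under the knockdown (log2 fold change −0.79, SE 0.20, edgeR adjusted p = 0.079). CD44 passed in DESeq2 (adjusted p = 0.0489) and in edgeR with no filter (0.0317). FGFR2 had 1 count in control and 0 in knockdown. Gene counts do not separate isoforms, so splicing itself was not measured.

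Of the non-coding RNAs listed for this circuit, 5 were found by symbol. MIR205HG had 0 counts, MIR34AHG 14 and 12, MIR17HG 20 and 21 and H19 11 and 1 in control and knockdown. MALAT1 stood at 286.5 and 128.6 CPM in control and 136.5 and 129.2 CPM under the knockdown (edgeR adjusted p = 0.34).

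Markers of other cell types were summed beside these values. The 12 luminal markers summed to 1503 to 1699 CPM in control and 1218 to 1340 CPM in knockdown, with ESR1 and PGR at 0. Of 8 tested members 0 were called in edgeR, against 2.99% of all genes tested. At an unadjusted p under 0.05 in edgeR there were 3, where 24% of all genes tested met that mark. All 8 had negative log2 fold changes (median −0.61, against 0.0053 over all genes tested). Groups were apart in 7 of the 8, all lower in the knockdown, where 54.3% of all genes tested were apart in either direction. The 8 basal and myoepithelial markers summed to 35.4 to 43.2 and 79.1 to 82.7 CPM, with KRT5 and KRT17 at 0. MYLK, a myosin light chain kinase gene, carried most of that sum. It had 32.1 and 39.7 CPM in control against 78.8 and 75.3 CPM under the knockdown (edgeR adjusted p = 0.0594). ACTA2 and CNN1 had log2 fold changes of −0.009 and −0.018. The 9 fibroblast markers summed to 57.3 to 71.1 and 33.1 to 51.1 CPM, with DCN and THY1 at 0, and 6 endothelial markers to 72.1 to 81.2 and 59.2 to 71.9 CPM, where CDH5 fell. The 8 blood markers summed to at most 1.25 CPM in any library. The part of these shifts in the values above was not tested. In bulk RNA, fewer cells with a transcript and less of it per cell cannot be told apart.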

How the data were processed

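RNA-seq of 4 MDA-MB-231 libraries was analysed, 2 per group, with groups taken from the sample labels. The deposited file holds unnormalized read counts, 1 row per gene symbol, per the file headers. Per the submitters' processing notes, the tools were HTSeq 0.6.1, STAR 2.5.2b, limma and cutadapt, on hg19 (GRCh37), with no roles given. Annotation, strandedness of counting and prior filters were not given in the sources used here.

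Counts were tested across all genes with edgeR 4.0.16 in R 4.3.3 (TMM, filterByExpr with a minimum count of 10 and a minimum total of 15, quasi-likelihood test without covariates), with Benjamini-Hochberg adjustment over the 13022 genes tested and a threshold of 0.05. Genes under the filter are given as counts, with 95% exact binomial intervals that cover counting error only and a floor of 3 counts. Within a group the libraries differed by more than sampling noise (chi-square over degrees of freedom 40.4 and 44.5, genes of mean count 20 or more). Alternatives included DESeq2 1.42.0.

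The members and lists were chosen with earlier results of these data known. In each list up to 5 called genes with the smallest adjusted p were named, or else 2 with the smallest p, besides 12 genes fixed by name. Sequences and lengths come from RefSeq (GRCh38.p14) and GENCODE 29, a later build than that of the counts.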

Additional observations from a re-analysis of the deposited data

How the results depend on the processing

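Depth is a limit for these genes, since 5 of the 10 held 0 or 1 counts in every library. SNAI1, SNAI2, ZEB1 and ZEB2 kept their direction under each setting that tested them, and ESRP2 turned to −0.016 without knockdown replicate 1. TRMT13 kept its call throughout, at a log2 fold change of −2.26 to −1.81 with 1 library left out. A mean of at least 5 CPM removed SNAI1, SNAI2 and ESRP2 from the test.

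Members called numbered 0 of 5 tested, but 1 of 7 (SNAI1) with no filter on low counts, where 1949 of 18632 genes were called. With the replicate block 2 of 5 were called, SNAI1 (edgeR adjusted p = 0.000785) and ZEB2 (0.00154). That setting called 5227 of the 13022 genes tested, a large share of the whole table. The labels do not say that a replicate number marks a shared batch or day, although same-numbered libraries have neighbouring serial names and deviated together (Pearson r = 0.639 over genes, themselves not independent). With the block, edgeR also called GSK3B (adjusted p = 0.000103), FN1 (3.62e-06), CD44 (0.000223) and SRSF6 (1.56e-05). Likewise called were PTBP3 (1.49e-08), CSNK1E (0.00122), RBFOX2 (0.00548) and EPCAM (0.0177), while VIM, CDH2, QKI and CTBP1 were not. Genes called over the whole table were 389 and became 1949 with no filter, 1130 in DESeq2 and 5227 with the replicate block, and 678 to 935 with 1 library left out, most without knockdown replicate 1. Higher calls made up 34.4%, but 48.2% with the block, 42.4% with no filter and 42.7% without knockdown replicate 2.

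Over all genes, 1949 of the 18632 with any count were called with no filter and 1130 in DESeq2. With the replicate block 5227 of 13022 were called, and each list kept its number tested. The list counts that follow stand beside these shares. With no filter, in DESeq2 and with the block, 7, 6 and 10 of the other EMT-linked factors were called (3 in the test as reported). The called genes numbered 6, 5 and 12 of the corepressors (2) and 15, 12 and 25 of the epithelial genes (4). They numbered 12, 10 and 15 of the mesenchymal genes (6), 5, 4 and 7 of the splicing factors (0) and 7, 5 and 15 of the ESRP-spliced genes (1). For the turnover genes (0) they were 2 with no filter and 10 with the block, and for the epithelial factors (2) 7 with the block. With a mean of at least 5 CPM they were 1 for the epithelial factors and 3 for the mesenchymal genes. Leaving out 1 library gave 4 to 6 for the EMT-linked factors, 2 to 3 for the corepressors, 4 to 9 for the epithelial genes (9 without knockdown replicate 1), 6 to 9 for the mesenchymal genes, 2 to 3 for the splicing factors, 1 to 2 for the ESRP-spliced genes and 0 to 2 for the turnover genes. With the block the splits were 4 higher and 8 lower for the corepressors, 7 and 18 for the epithelial genes and 5 and 10 for the mesenchymal genes. The causes were not tested.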
